A study of Homo sapiens with 8 samples.

Results

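The genes described here are 49 human genes whose products carry cells into mitosis, build and check the spindle, condense and separate the chromosomes and divide the cell. They were chosen by name, and their levels were obtained by giving each RefSeq transcript model its gene symbol and adding up the expression values of all models of that gene, among 22627 symbols in all. All 49 were found. Each also averaged 1 FPKM or more across the 4 groups (FPKM counts sequenced fragments scaled by transcript length and by library size), as did 11052 genes in all, and only such genes were compared.

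Entry into mitosis is driven by the kinase CDK1 once it is bound to a cyclin A or cyclin B. The spindle assembly checkpoint then holds the anaphase-promoting complex inactive until every kinetochore is attached to microtubules, after which securin and the cyclins are destroyed, separase opens cohesin and the midzone directs cytokinesis. Most of these genes are transcribed late in the cell cycle and are used as readouts of how many cells in a culture are dividing, and myeloid precursors leave the cycle as they mature into granulocytes.

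The study asked what the transcription factor TFEB, a regulator of lysosome and autophagy genes, contributes to the response of acute promyelocytic leukaemia cells to all-trans retinoic acid (ATRA), which drives such cells to mature. All groups were NB4 cells, an established human acute promyelocytic leukaemia line, carrying a lentiviral hairpin RNA: a scrambled hairpin (shScr) or a hairpin against TFEB (shTFEB). The 4 groups were shScr with ethanol vehicle, shScr with 1 µM ATRA, shTFEB with ethanol vehicle and shTFEB with 1 µM ATRA, all for 72 h, with 2 samples in each by the labels (8 in all). The parental wild-type cells named in the design were not analysed here, and because the titles of both shScr ATRA samples also carry the word vehicle, the treatment field decided their group. How many hairpins or clones stand behind each line is not given in the labels.

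Each of the 4 tables held 1 FPKM value per transcript model and group. The spread between the 2 samples of a group cannot be seen in them, and no test was possible in any comparison below: a ratio is a size without an error. Ratios are log2((FPKM + 1)/(FPKM + 1)), so that a value of -1 is a 2-fold drop on that scale and changes of low genes are understated. A gene was counted as changed when it was at least 2-fold apart on that scale, and percentages of vehicle are of the FPKM itself; 1.5-fold is given as a second, weaker mark. Lower and upper bounds were deposited with each value and were summed over the models of a gene, but the FPKM itself lay inside its own bounds for only 31 to 34 of the 49 genes, depending on the group. They are given as deposited and are not read as confidence intervals. Because the libraries hold bulk RNA, fewer dividing cells and less of a transcript in each dividing cell cannot be told apart.

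The targeted gene, TFEB, stood at 1.20 FPKM in vehicle-treated and 19.4 in ATRA-treated shScr cells, at 1.35 in the group labelled shTFEB vehicle and at 8.44 in shTFEB ATRA. Under ATRA the shTFEB group had 43.6% of the shScr level. Under vehicle it had 113%, so TFEB was not lower in the group labelled shTFEB vehicle, and every direction drawn from that group rests on its label. Relative depth, read from the spacing of the lowest values, ranged from 0.911 to 1.17 of that of shScr vehicle. The cells carried promyelocyte genes, with MPO (myeloperoxidase of the azurophil granules) at 3871 and PRTN3 at 379 FPKM in shScr vehicle, while ELANE was listed at 0 in 3 groups. Under ATRA MPO was at 662 FPKM in shScr and 594 in shTFEB cells, and TGM2, a transglutaminase strongly induced by retinoic acid, went from 4.08 to 2091 FPKM in shScr and from 2.23 to 1258 FPKM in shTFEB cells. Of the erythroid and megakaryocytic markers HBB, HBA1, HBA2 and PF4 were at 0 in every group. ITGA2B alone of that list was among the genes compared, and its values are given with the other markers below.

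Promoter sequence is shown first because a large share of mitotic genes are known to carry a pair of elements close to their start: the cell cycle genes homology region (CHR), with the core TTTGAA or more rarely TTCGAA, to which the DREAM repressor and the MuvB activators bind, and the CCAAT box of NF-Y. RefSeq promoter entries (build GRCh38.p14) were at hand for 41 of the 49 genes, in 53 entries, and not for TTK, AURKA, BIRC5, TPX2, UBE2C, FOXM1, RACGAP1 and BUB3. The following 10 windows hold the 120 bases before the start of genes with 1 entry, on the gene's own strand from 5′ to 3′. CCNB2 and PLK1 are textbook cases, CKS2, MAD2L1, CCNA2 and BUB1B had the lowest ratios of ATRA to vehicle in shScr cells among genes with 1 entry, and PRC1, KIF20A, MKI67 and ANLN had the ratios closest to 0 in shScr cells among them. Capitals mark each CHR core and each CCAAT box on either strand. Elements on the opposite strand appear in capitals as their reverse complement, which begins with TTC for the CHR core and with ATT for the NF-Y box.
CCNB2 (chr15:59105026-59105145, plus strand): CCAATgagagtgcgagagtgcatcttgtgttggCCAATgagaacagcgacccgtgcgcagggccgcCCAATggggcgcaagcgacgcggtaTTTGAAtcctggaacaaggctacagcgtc
PLK1 (chr16:23678769-23678888, plus strand): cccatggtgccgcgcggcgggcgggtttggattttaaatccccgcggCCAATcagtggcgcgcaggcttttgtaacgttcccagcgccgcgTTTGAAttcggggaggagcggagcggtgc
CKS2 (chr9:89311075-89311194, plus strand): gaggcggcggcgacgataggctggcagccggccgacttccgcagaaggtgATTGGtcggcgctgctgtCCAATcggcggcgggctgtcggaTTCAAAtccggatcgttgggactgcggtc
MAD2L1 (chr4:120066849-120066968, minus strand): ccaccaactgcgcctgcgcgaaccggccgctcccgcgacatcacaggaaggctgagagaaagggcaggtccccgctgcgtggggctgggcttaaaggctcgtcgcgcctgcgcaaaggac
CCNA2 (chr4:121823884-121824003, minus strand): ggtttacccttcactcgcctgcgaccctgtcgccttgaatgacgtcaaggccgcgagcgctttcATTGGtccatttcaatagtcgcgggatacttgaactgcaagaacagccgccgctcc
BUB1B (chr15:40160949-40161068, plus strand): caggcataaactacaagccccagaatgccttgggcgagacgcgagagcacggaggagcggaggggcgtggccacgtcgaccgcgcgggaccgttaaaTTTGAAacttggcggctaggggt
PRC1 (chr15:90994536-90994655, minus strand): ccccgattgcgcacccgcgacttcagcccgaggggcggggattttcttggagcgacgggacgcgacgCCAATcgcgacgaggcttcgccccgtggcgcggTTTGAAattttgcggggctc
KIF20A (chr5:138178992-138179111, plus strand): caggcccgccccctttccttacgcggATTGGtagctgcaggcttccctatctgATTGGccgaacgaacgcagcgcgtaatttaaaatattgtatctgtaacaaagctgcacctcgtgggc
MKI67 (chr10:128126424-128126543, minus strand): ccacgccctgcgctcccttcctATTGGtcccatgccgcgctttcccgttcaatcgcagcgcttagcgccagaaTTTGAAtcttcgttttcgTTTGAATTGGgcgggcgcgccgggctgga
ANLN (chr7:36389742-36389861, plus strand): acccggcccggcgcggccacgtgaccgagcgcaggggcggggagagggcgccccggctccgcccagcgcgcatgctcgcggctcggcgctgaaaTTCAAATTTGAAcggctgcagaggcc

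Among these windows CCNB2 and PLK1 show the classical layout, with a CCAAT box upstream of a TTTGAA core a short way before the start. CKS2 has the same layout with the core on the opposite strand. Of the motifs searched, MAD2L1 has none in the window and CCNA2 has only the CCAAT box. MKI67, ANLN and PRC1, of the windows with ratios closest to 0, each hold at least 1 CHR core. An exact core was present in 2 of the 4 genes with the lowest ratios and in 3 of the 4 with ratios closest to 0 among genes with 1 entry. Only TTTGAA and TTCGAA were searched. Other forms, such as the cttgaa in the CCNA2 window, were not counted, so a missing match does not show that a gene lacks a CHR. A match describes letters in a window and shows no binding.

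Over the 250 bases before the start, a TTTGAA match on either strand was found in 26 of 53 entries (49.1%, 24 genes). The share was 13.3% of all 35116 promoter entries and 9.29% of the 12489 entries of the genes compared. CCAAT matches, which are common anywhere, were in 69.8% of the entries against 32.0% of all and 33.6% of the compared genes' entries. Both motifs together were found in 21 entries (39.6%, 20 genes), against 4.69% and 3.56%. The matches also lay close to the start: 19 entries (35.8%) had a TTTGAA within 70 bases, against 3.09% of all entries and 1.94% of those of the genes compared. TTCGAA was found in 1 entry, and so was each of the E2F motifs TTTGGCGC and TTTCGCGC. Overlapping matches were all counted, and the palindrome TTCGAA was counted once.

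**Figure D1:**
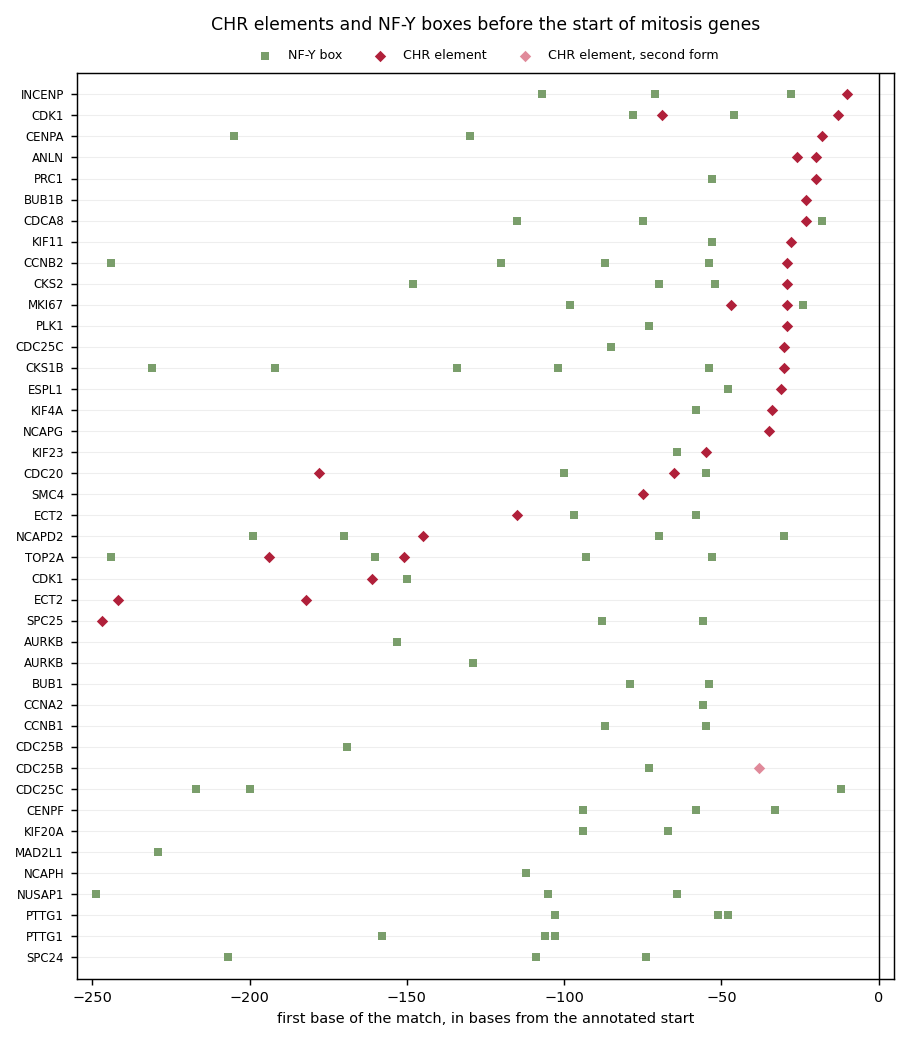
Positions of CHR and NF-Y matches before the annotated start, 1 row per promoter entry that holds at least 1 match (some genes have several entries); the x axis is the first base of the match in bases from the start, and the second form of the CHR is TTCGAA. Of the 32 CHR matches 22 (68.8%) begin within 70 bases of the start, with a median of -32.5, while the 77 NF-Y matches have a median of -87 and 29 of them begin within 70 bases.

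Under ATRA nearly all of the mitosis genes were lower than under vehicle, in both lines, but few by as much as 2-fold. In shScr cells 48 of 49 had a negative log2 ratio (98.0%, against 57.4% of all genes compared), and the median over the genes was -0.57 against -0.15 for all genes. In cells carrying shTFEB 48 of 49 were negative (57.6% of all genes), with a median of -0.43 against -0.13. Only 3 genes, CCNA2, CKS2 and MAD2L1, fell at least 2-fold in shScr cells (6.12%, against 15.2% of all genes), and 1, MAD2L1, in shTFEB cells (2.04%, against 10.5%). None rose at least 2-fold in either line, where 12.5% and 11.5% of all genes did. Without the added 1 FPKM, BUB1B (2.06-fold) and CENPF (2.00-fold) were also past 2-fold lower in shScr cells and UBE2C was past 2-fold higher in both lines. After a median-of-ratios rescaling 43 and 42 of 49 ratios were negative, with medians of -0.40 and -0.29 against 0.00 for all genes. An upper-quartile rescaling gave 45 and 47, with medians of -0.44 and -0.40 against -0.03 and -0.10 for all genes. The genes past 2-fold were unaltered in both rescalings. A list of 12 reference genes, such as HPRT1 and PPIA, had medians of -0.49 and -0.32 with 9 of 12 ratios negative in each line. Of these 12 genes 2 in shScr and 1 in shTFEB cells were at least 2-fold lower, against 15.2% and 10.5% of all genes. In each line 1 was at least 2-fold higher, against 12.5% and 11.5% of all genes. The share with a negative ratio was above that of all genes in both lines.

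At the weaker mark 23 genes were at least 1.5-fold lower in shScr cells (46.9%, against 28.9% of all genes). In shTFEB cells 14 were (28.6%, against 24.4%), and 13 were lower in both lines. The share of all genes lower in both was not counted. By the deposited bounds, 45 genes lay below vehicle without overlap in shScr cells (91.8%, against 47.9%) and 43 in shTFEB cells (87.8%, against 46.1%). Bounds overlapped for CDC25C, KIF20A, PRC1 and UBE2C in both lines and for BUB3 and TTK in shTFEB cells as well. Setting UBE2C aside, the level left under ATRA ran from 35.8% of vehicle (CKS2) to 99.3% (PRC1) in shScr cells with a median of 65.8%, and from 43.7% (MAD2L1) to 98.7% (BUB3) in shTFEB cells with a median of 72.7%. All ATRA and vehicle ratios in shTFEB cells use the group labelled shTFEB vehicle.

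**Figure D2:**
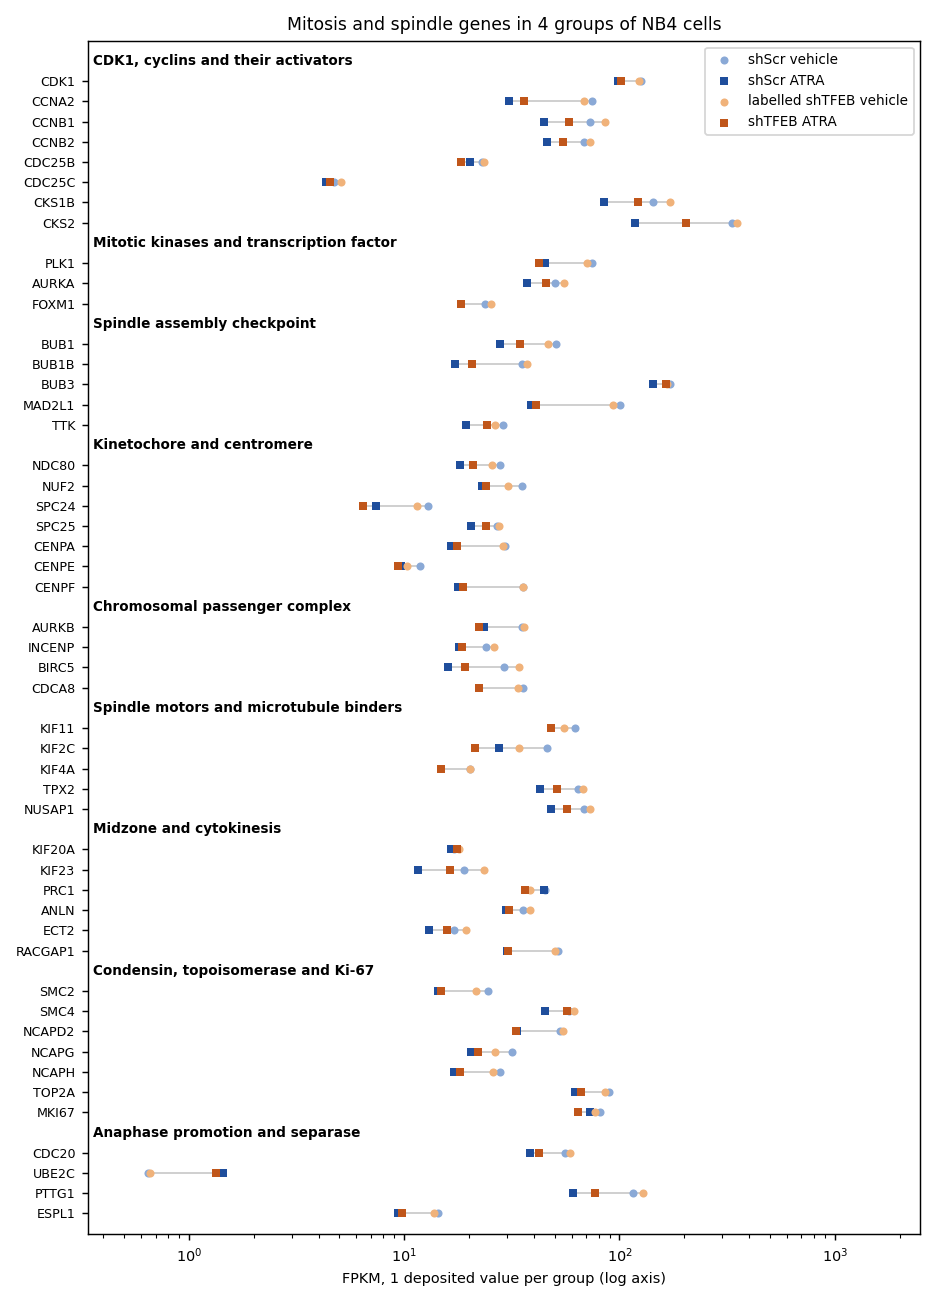
FPKM of the 49 genes in the 4 groups, 1 deposited value per gene and group without replicate error, on a log axis and ordered by role. In 46 genes both ATRA values (squares) lie below both vehicle values (circles), and UBE2C, far to the left, is the gene whose ATRA values lie above. The share of all genes in this order was not counted.

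The regulators that start mitosis included the most abundant transcript of the set in 3 of the 4 groups. CKS2, a small subunit that docks on CDK1, stood at 332 FPKM in vehicle-treated and 119 in ATRA-treated shScr cells, at 353 in the group labelled shTFEB vehicle and at 204 in shTFEB ATRA. It fell 2.80-fold in shScr cells without the added 1 FPKM (log2 ratio -1.48, the largest drop of the set) and was 1.73-fold lower in shTFEB cells (log2 ratio -0.79), a difference between the 2 responses of 0.69 on the log2 scale that is the largest of the 49. Its gene lies at chr9:91926113-91931618 (hg19), and its FPKM lies above its deposited bounds in every group (218 to 229 FPKM in shScr vehicle, 77.1 to 83.8 in shScr ATRA). The bounds of the vehicle and ATRA groups were nevertheless apart in both lines. CKS1B, the sister subunit, showed the same order at 144, 85.2, 172 and 122 FPKM, in the order shScr vehicle, shScr ATRA, labelled shTFEB vehicle and shTFEB ATRA, which is kept for all lists of 4 values below.

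CCNA2, cyclin A2, which partners CDK kinases in S phase and early mitosis, stood at 74.5, 30.6, 68.1 and 35.9 FPKM (chr4:122737599-122745088, hg19). Both ATRA groups were below both vehicle groups. It fell in shScr cells, with a log2 ratio of -1.26 and 41.0% of the level left, and was lower by a log2 ratio of -0.91 in shTFEB cells, just short of the mark. The B cyclins, which drive mitosis itself, moved less: CCNB1 was at 72.6, 44.8, 85.6 and 58.6 FPKM, and CCNB2 was at 68.6, 46.0, 72.8 and 54.7 FPKM. CDK1, their kinase, kept 77.8% of its level in shScr and 82.8% in shTFEB cells, at 126, 98.3, 123 and 102 FPKM. CDC25B and CDC25C, phosphatases that activate CDK1, had the ratios closest to 0 of this role in shScr cells, with log2 ratios of -0.17 and -0.10 in shScr cells and of -0.33 and -0.14 in shTFEB cells. CDC25C was also among the lowest genes, at 4.35 to 5.09 FPKM. Over the 8 genes of this role the median log2 ratio was -0.63 in shScr and -0.45 in shTFEB cells.

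The kinase PLK1, which matures centrosomes and promotes mitotic entry, was at 74.3, 45.0, 70.5 and 42.1 FPKM, with nearly equal log2 ratios of -0.71 and -0.73. AURKA, the spindle pole kinase, was at 50.2, 37.2, 55.5 and 45.8 FPKM. FOXM1, a transcription factor that activates late cell cycle genes, was at 23.7, 18.4, 25.4 and 18.3 FPKM, nearly equal in both ATRA groups. None of the 3 reached 2-fold in either line.

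The spindle assembly checkpoint held the other clear fall. MAD2L1 encodes MAD2, which binds CDC20 and keeps it from activating the anaphase-promoting complex, and was at 101, 38.7, 93.4 and 40.8 FPKM (chr4:120980579-120988013, hg19). Its ATRA values were far below both vehicle values, and it was the only gene of the 49 counted as 2-fold lower in both lines, with log2 ratios of -1.36 and -1.18 (2.60-fold and 2.29-fold lower without the added 1 FPKM). The FPKM lies above its deposited bounds here too (85.0 to 89.6 in shScr vehicle, 32.4 to 35.2 in shScr ATRA). BUB1B, the pseudokinase BUBR1 of the same inhibitory complex, was at 35.3, 17.2, 37.0 and 20.7 FPKM and sat at the edge of the mark in shScr cells, with a log2 ratio of -0.998 (2.06-fold without the added 1 FPKM). BUB1, a kinase at unattached kinetochores, was at 50.6, 27.8, 46.4 and 34.4 FPKM. TTK, the kinase MPS1 that starts checkpoint signalling, differed between lines in the size of its ratio, at 28.9, 19.4, 26.4 and 24.2 FPKM. BUB3, the adaptor that brings BUB1 and BUBR1 to kinetochores, moved least of the checkpoint genes, at 172, 143, 166 and 164 FPKM, with log2 ratios of -0.26 and -0.02.

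Kinetochore and centromere genes were lower together without any reaching a log2 ratio of -1. CENPF, a large kinetochore protein of late G2 and mitosis, came closest, at 35.5, 17.7, 35.5 and 18.8 FPKM (log2 ratios -0.96 and -0.88, and 2.00-fold lower in shScr cells without the added 1 FPKM). CENPA, the histone H3 variant that marks centromeres, was at 29.5, 16.5, 28.9 and 17.7 FPKM. Of the NDC80 complex, which grips microtubules, SPC24 was lowest in level and had the lowest ratios, at 12.9, 7.41, 11.5 and 6.43 FPKM, and NDC80, NUF2 and SPC25 had log2 ratios between -0.60 and -0.39 in shScr and between -0.34 and -0.20 in shTFEB cells. CENPE, a kinetochore motor, was at 11.9, 9.64, 10.3 and 9.36 FPKM. The median log2 ratio over the 7 genes was -0.60 in shScr and -0.34 in shTFEB cells, and 5 and 3 of them were at least 1.5-fold lower (28.9% and 24.4% of all genes).

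The 4 genes of the chromosomal passenger complex, which corrects faulty attachments, behaved alike in both lines. BIRC5, survivin, went from 29.1 FPKM to 55.0% of that in shScr and from 34.3 to 19.1 FPKM in shTFEB cells (log2 ratios -0.82 and -0.81). AURKB, the kinase of the complex, was at 35.3, 23.4, 35.8 and 22.2 FPKM. CDCA8 (borealin) and INCENP, the scaffold, had log2 ratios of -0.64 and -0.41 in shScr cells and of -0.58 and -0.48 in shTFEB cells.

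Among spindle motors and microtubule binders KIF2C, a microtubule depolymerase at centromeres, differed most between the lines under both treatments, at 46.3, 27.4, 34.3 and 21.3 FPKM. Its log2 ratio of shTFEB to shScr was -0.42 under vehicle and -0.35 under ATRA, the lowest of the 49 in both, and short of 1.5-fold. KIF11, the motor that pushes spindle poles apart, was at 62.4, 47.9, 55.3 and 47.9 FPKM, the same in both ATRA groups. TPX2, which activates AURKA on the spindle, was at 64.2, 43.0, 68.0 and 51.4 FPKM. NUSAP1, a microtubule bundler, was at 68.3, 48.3, 72.9 and 57.2 FPKM. KIF4A, a chromosome-bound motor, had log2 ratios of -0.42 and -0.43, and its value is uncertain because reads of its near-identical intronless copy KIF4B could be counted with it.

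Genes of the midzone and cytokinesis ranged in shScr cells from a log2 ratio of -0.01 (PRC1) to -0.78 (RACGAP1). KIF20A, a motor that carries the passenger complex to the midzone, was flat at 17.0, 16.5, 18.1 and 17.5 FPKM. PRC1, which bundles midzone microtubules, was also flat under ATRA, at 45.1, 44.8, 38.5 and 36.3 FPKM, and its level was the lower one in the shTFEB line with either treatment (log2 ratios of -0.22 and -0.29). RACGAP1 and KIF23, by contrast, form the centralspindlin complex and were both lower under ATRA: RACGAP1 at 51.9, 29.9, 50.1 and 30.5 FPKM, and KIF23 at 18.9, 11.5, 23.5 and 16.4 FPKM. ANLN, the anillin of the contractile ring, and ECT2, the exchange factor that activates RhoA, had log2 ratios of -0.26 and -0.35 in shScr cells and of -0.31 and -0.27 in shTFEB cells.

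Chromosome structure genes were mostly lower. The condensin subunits NCAPD2 (53.0, 33.3, 54.5 and 33.0 FPKM), NCAPH, NCAPG and SMC2 had log2 ratios of -0.73 to -0.61 in shScr cells and of -0.71 to -0.26 in shTFEB cells. SMC4, like SMC2 a core subunit shared by both condensins, was at 58.4, 45.0, 61.3 and 57.1 FPKM. TOP2A, the topoisomerase that untangles sister chromatids, was at 89.3, 62.4, 85.9 and 66.5 FPKM. MKI67, which codes for the proliferation marker Ki-67, moved little, at 81.0, 73.1, 76.8 and 64.1 FPKM, or 90.3% and 83.5% of vehicle.

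Of the genes that trigger anaphase, PTTG1 (securin, the inhibitor of separase) was at 115, 61.1, 129 and 77.3 FPKM, with log2 ratios of -0.90 and -0.73. CDC20, the activator of the anaphase-promoting complex, was at 56.1, 38.2, 59.0 and 42.2 FPKM. ESPL1, separase, was at 14.4, 9.38, 13.7 and 9.77 FPKM. UBE2C, the ubiquitin-conjugating enzyme of that complex, was the exception in direction and in level, at 0.649, 1.44, 0.658 and 1.33 FPKM. It exceeded the required mean of 1 FPKM only through its ATRA values, its deposited bounds overlapped between vehicle and ATRA in both lines, and 2 further models at its locus matched no symbol and stood at no more than 0.670 FPKM in any group. Its log2 ratios of 0.56 and 0.49 did not reach the mark, while without the added 1 FPKM it was 2.21-fold and 2.02-fold higher. Whether reads of this gene were assigned to other models was not tested, and its level is uncertain.

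**Figure D3:**
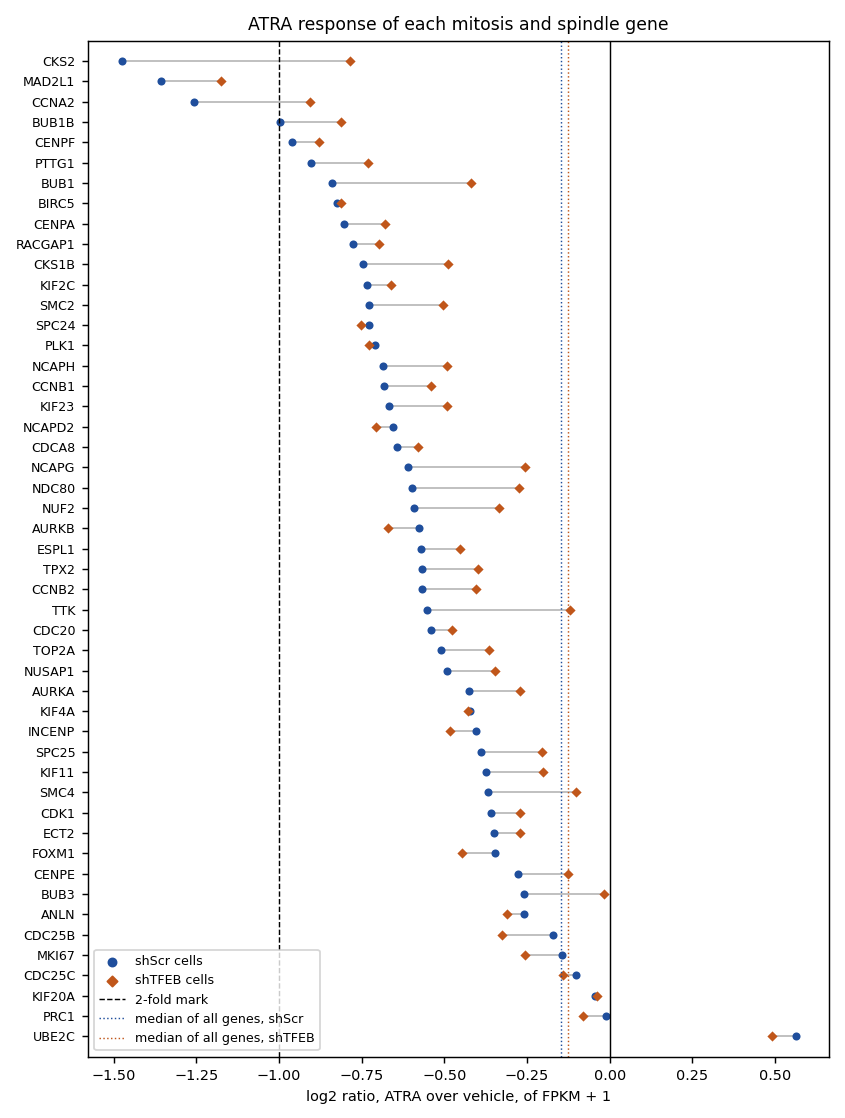
Log2 ratio of ATRA to vehicle for each of the 49 genes in shScr (circles) and shTFEB cells (diamonds), from 1 value per group without replicate error, ordered by the shScr ratio; the dashed line is the 2-fold mark and dotted lines are the medians of all genes. CKS2, MAD2L1 and CCNA2 lie past the mark in shScr cells and MAD2L1 alone in shTFEB cells, and UBE2C is the only gene above 0.

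Between the hairpins the mitosis genes differed little. Under vehicle no gene was 2-fold or even 1.5-fold apart between the group labelled shTFEB vehicle and shScr vehicle, where 0.787% of all genes were 2-fold lower and 1.06% higher, and 1.76% and 2.52% were past 1.5-fold. In that comparison 25 of 49 were higher (55.6% of all genes) and 24 lower (43.5%). The median log2 ratio was 0.00 against 0.02 for all genes. After a median-of-ratios rescaling 21 were higher and 28 lower, with a median of -0.03 against 0.00 for all genes. By the deposited bounds, 10 were higher without overlap (20.4%, against 21.9% of all genes) and 15 lower (30.6%, against 14.9%). The 10 were CCNB1, CKS1B, CKS2, BIRC5, TPX2, KIF23, ANLN, ECT2, SMC4 and PTTG1. As TFEB was not lower in that group, these values compare 2 labelled lines.

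Under ATRA, where TFEB was lower in the shTFEB group, 36 of 49 mitosis genes had their higher value in the shTFEB line (73.5%, against 58.9% of all genes). None was 2-fold apart (1.58% of all genes were 2-fold lower and 2.67% higher), and CKS2 alone was at least 1.5-fold higher, with a log2 ratio of 0.78 (7.26% of all genes were that much higher and 4.02% lower). By the deposited bounds 23 were higher without overlap (46.9%, against 35% of all genes) and 4 lower (8.16%, against 19.7%), PLK1, KIF2C, PRC1 and MKI67. The median was 0.08 against 0.06 for all genes. This direction hung on the scale: 27 genes were higher after a median-of-ratios rescaling, with a median of 0.025 against 0.010 for all genes. After an upper-quartile rescaling 21 were higher, fewer than were lower, with a median of -0.017 against -0.022 for all genes. After CKS2 came CKS1B (0.51), KIF23 (0.47), CCNB1 (0.38) and SMC4 (0.33), and at the low end were KIF2C (-0.35) and PRC1 (-0.29).

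The log2 ratio of ATRA to vehicle was higher (for these genes, less negative) in shTFEB than in shScr cells for 36 of the 49 genes, against 56.1% of all genes, whose ratios can have either sign. The median difference between the responses was 0.14 against 0.04 for all genes. After a median-of-ratios rescaling 34 genes had the higher ratio in shTFEB cells, with a median difference of 0.112 against 0.011 for all genes. After an upper-quartile rescaling 27 did, with a median difference of 0.042 against -0.050 for all genes. No gene differed by 2-fold in either direction (1.86% and 2.42% of all genes did), and CKS2 alone differed by 1.5-fold (5.86% of all genes had a response that much higher in shTFEB cells and 4.63% that much lower). The comparisons share groups: the hairpin ratio under ATRA and the difference of responses both contain the same ATRA values, and they are not independent of the ATRA ratio in each line. Lowest of the 4 values was shScr ATRA for 36 genes, shTFEB ATRA for 12 and shScr vehicle for 1, UBE2C. The same orders were not counted over all genes.

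**Figure D4:**
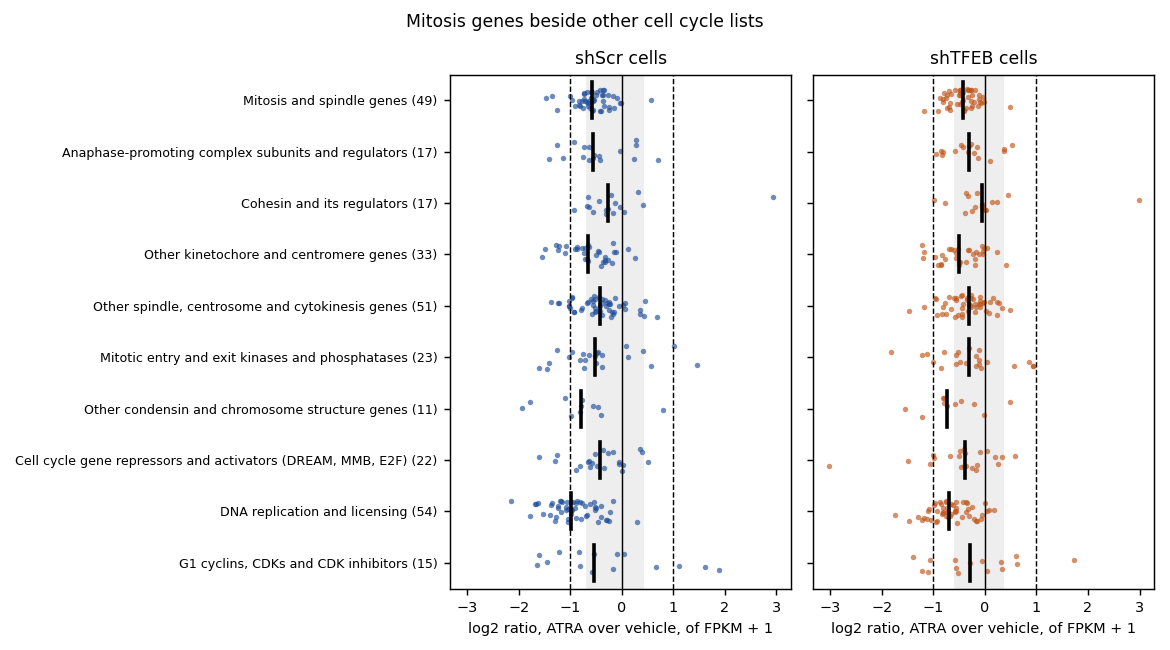
Log2 ratio of ATRA to vehicle for the genes of each list (points, with the number compared in brackets) in shScr and shTFEB cells; black bars are list medians, grey bands span the quartiles of all genes compared, dashed lines mark 2-fold, and vertical scatter has no meaning. Of the lists plotted, DNA replication genes have the lowest median in shScr cells (-0.98), against -0.57 for the mitosis genes; the values have no replicate error.

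Related genes placed the mitosis genes within the cell cycle programme. DNA replication and licensing genes had lower medians than the mitosis genes in both lines, -0.98 and -0.70 over 54 genes, and 23 and 9 of them fell at least 2-fold, against 3 and 1 of the 49. POLD2, a subunit of DNA polymerase delta, was at 148, 32.3, 153 and 44.8 FPKM, and MCM4, of the replicative helicase, was at 86.4, 24.3, 81.9 and 32.7 FPKM. Other kinetochore and centromere genes had medians of -0.65 and -0.50 over 33 genes, with 7 and 3 at least 2-fold lower, among them SKA3 at 25.7, 8.47, 23.5 and 9.67 FPKM. Other spindle, centrosome and cytokinesis genes had medians of -0.42 and -0.31 over 51 genes, with 7 and 2 lower. STMN1, which destabilises microtubules, was the most abundant of those named, at 401, 153, 336 and 175 FPKM. These counts are read beside the background of 15.2% and 10.5% of all genes.

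For the lists that follow, too, 15.2% and 10.5% of all genes were at least 2-fold lower in shScr and shTFEB cells and 12.5% and 11.5% higher. Components of the anaphase-promoting complex, the target of the checkpoint, had medians of -0.56 and -0.30 over 17 genes, and 3 fell at least 2-fold in shScr cells, ANAPC1, ANAPC5 and ANAPC7. ANAPC5, a scaffold subunit, was at 160, 66.6, 166 and 91.2 FPKM. Cohesin and its regulators were nearer to all genes, with medians of -0.26 and -0.07 over 17 genes and no fall past 2-fold. REC8, the meiotic cohesin subunit, was listed at 0 in both vehicle groups and stood at 6.59 and 6.93 FPKM under ATRA. Other condensin and chromosome structure genes had medians of -0.79 and -0.74 over 11 genes, with 3 and 2 at least 2-fold lower. LMNB1, lamin B1 of the nuclear envelope, was at 235, 67.2, 217 and 92.8 FPKM.

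Among the regulators that act on CHR and E2F elements, 3 and 4 of 22 genes were at least 2-fold lower, with medians of -0.42 and -0.39; E2F5, one of the 4, was listed at 0 in every group but the one labelled shTFEB vehicle. MYBL2, the B-MYB that converts MuvB into an activator, was at 133, 43.1, 114 and 39.9 FPKM, and E2F1 was at 21.2, 8.28, 21.2 and 9.60 FPKM. Entry and exit kinases and phosphatases had medians of -0.52 and -0.30 over 23 genes, with 5 and 4 lower and 2 and 0 higher. CDC25A, an activating phosphatase of CDK2 and CDK1, was at 23.5, 7.06, 28.9 and 11.8 FPKM, unlike CDC25B and CDC25C above. Of 15 G1 cyclins, CDKs and CDK inhibitors 4 were at least 2-fold lower in each line and 3 and 1 higher, beside those shares of all genes (15.2% and 10.5% lower, 12.5% and 11.5% higher). CDKN1A, the inhibitor p21, was at 1.05, 6.54, 2.98 and 3.92 FPKM, and CDKN2D, the inhibitor p19, was at 9.94, 32.6, 11.9 and 41.6 FPKM.

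Markers of other cell types moved in the same comparisons. Lymphoid markers summed to 39.7, 189, 39.5 and 134 FPKM, most of it NKG7, while CD2, CD7 and MS4A1 were at or near 0 in every group. CD79A, of the B cell receptor, went from 2.41 to 18.5 FPKM in shScr and from 2.09 to 19.7 in shTFEB cells, while CD79B went from 8.85 to 0.551 and from 7.19 to 0.208, and CD3D from 3.76 to 0.514 and from 2.71 to 0.368. Non-blood markers summed to between 29.6 and 36.2 FPKM, with KRT18 the highest at 13.9 to 29.7 FPKM. Of these KRT8 was listed at 0 in both vehicle groups and stood at 3.32 and 4.71 FPKM under ATRA, PECAM1 went from 1.56 to 8.59 and from 2.25 to 8.23 FPKM, and COL1A2, COL3A1, DCN, CDH2 and KRT19 were at 0. Erythroid and megakaryocytic markers summed to at most 3.62 FPKM. Most of that was ITGA2B, a megakaryocytic marker, at 0.177, 0.521, 0.770 and 2.75 FPKM. Its log2 ratio of ATRA to vehicle was 0.37 in shScr and 1.08 in shTFEB cells. Under ATRA its log2 ratio of shTFEB to shScr was 1.30. Of 9 maturation genes 8 rose at least 2-fold in shScr and 9 in shTFEB cells (12.5% and 11.5% of all genes). None of them had a negative ratio in either line. Of 7 promyelocyte genes 6 fell at least 2-fold in each line (15.2% and 10.5% of all genes). The part of these changes in the lower mitosis gene levels was not tested.

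Summing over transcript models bore on several genes, since 25 of the 49 had more than 1 model (96 models in all). For FOXM1 the share assigned to each model jumped between groups while the sum moved little: model NM_202003 was at 12.3, 0, 7.72 and 2.79 FPKM and model NM_021953 at 0, 9.35, 5.70 and 8.43 FPKM. BUB3, with 2 models, showed a smaller shift, from 39.8% to 45.9% for NM_004725 in shScr cells and from 40.6% to 51.2% in shTFEB cells. Values of single models of these genes were not read as isoform changes, because a value listed at 0 can be a failed assignment among overlapping models. When the highest model replaced the sum, 48 of the 49 genes were compared, since UBE2C then missed the required mean. SMC2 joined the 3 genes past 2-fold lower in shScr cells, against 1663 of 10899 genes in all. FOXM1 no longer had a negative ratio in shScr cells, nor PRC1 in shTFEB cells.

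**Figure D5:**
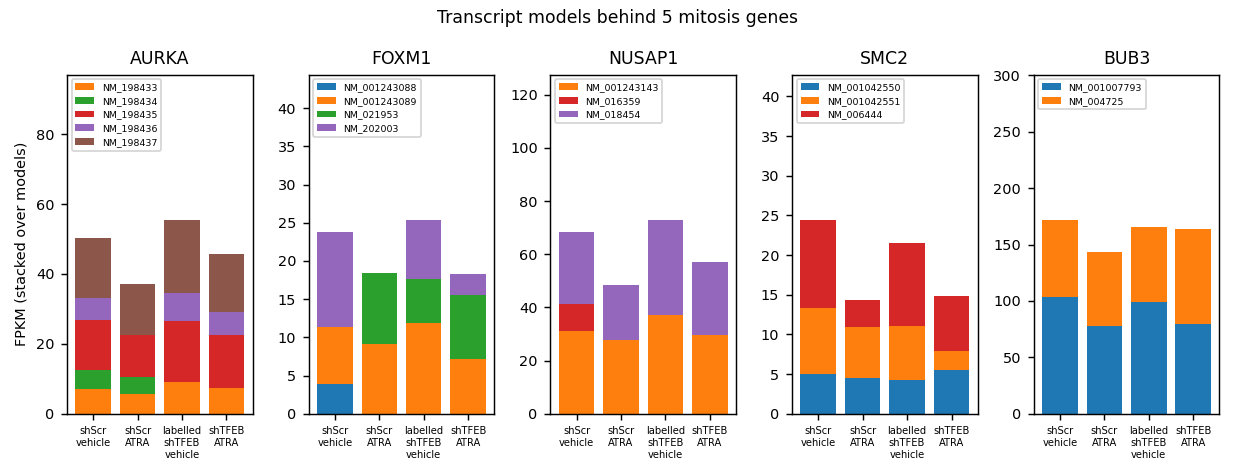
FPKM of each transcript model of AURKA, FOXM1, NUSAP1, SMC2 and BUB3, picked as examples and stacked to the gene's sum in the 4 groups (linear axis from 0, 1 deposited value per model and group). Model shares also shift in genes not plotted: NM_022809 of CDC25C goes from 29.3% in shScr vehicle to 43.4% in shScr ATRA. In FOXM1 the NM_202003 value goes from 12.3 in shScr vehicle to 0 in shScr ATRA, while the sum goes from 23.7 to 18.4. This does not hold for every model: the sum of AURKA goes from 50.2 to 37.2 in shScr cells and its highest model from 17.1 to 14.7.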

How the data were processed

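RNA was sequenced from TruSeq libraries of 8 NB4 samples in 4 groups, which the labels call biological replicates. The deposited FPKM come from the authors: per the submitters' processing notes, TopHat, Cufflinks and Cuffdiff were used with hg19; their versions, and how the 2 samples of a group were combined into 1 value, are not given in the sources used here. Each deposited table lists 65986 transcript models. RefSeq accessions were matched to symbols in a GRCh38.p14 RefSeq gene table (39841 of 41159, 96.8%), used for names alone; gene coordinates are those of the files, counted from 1. All 49 genes had models, and 0 of those models had a status other than OK.

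Models of a gene were added together without further normalisation, as were their deposited bounds. Genes averaging 1 FPKM or more across the 4 groups were compared as log2 ratios with a pseudocount of 1 FPKM. The script was tested on simulated data. Depth could only be read relative to shScr vehicle, where 1 fragment in a model of 950 bases is worth about 0.0172 FPKM. Promoter motifs were searched as exact matches on both strands.

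The members and gene lists were chosen with earlier results of these data known, so neither is independent support. Any member could be named; of each other list up to 4 genes with the largest log2 ratio under ATRA could be, and a few of those are given. Some marker values are not reported here. Alternatives were other pseudocounts, filters, rescalings, model choices and marks. Python 3.11.15, pandas 2.3.3, numpy 2.4.6 and matplotlib 3.10.9 were used.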

Additional observations from a re-analysis of the deposited data

How the results depend on the processing

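Of 139 recomputed values 129 were labelled as staying with the value reported and 10 as moved. Staying did not mean equal: with a pseudocount of 0.1 FPKM, 3 genes lower under ATRA in shScr cells became 4 under that label. With a pseudocount of 5 FPKM the median in shScr cells went from -0.572 to -0.511 under the same label. Dropping the filter, or keeping only models with status OK, could not change any value of the 49 genes. All 49 had passed the filter, and 0 of their models had another status. The total of 129 is therefore no measure of robustness. At the 1.5-fold mark, 23 genes were lower under ATRA in shScr and 14 in shTFEB cells, and under ATRA 1, CKS2, was higher in the shTFEB line. With a pseudocount of 0.1 FPKM, 1 gene, UBE2C, was 2-fold higher under ATRA in shScr cells, and BUB1B made 4 that were lower. Median-of-ratios rescaling gave median log2 ratios under ATRA of -0.40 in shScr and -0.29 in shTFEB cells, and raised the median of all genes by 0.15 and 0.13. Upper-quartile rescaling gave -0.44 in shScr cells, -0.017 for shTFEB against shScr under ATRA (a turned sign) and 0.042 for the difference of the responses. The medians of all genes were then -0.030, -0.022 and -0.050. Across all genes the split of 1676 lower and 1384 higher in shScr cells became 1256 and 1612 by median-of-ratios and 1359 and 1550 by upper-quartile; in shTFEB cells 1159 and 1270 became 884 and 1440, and 1082 and 1304. CCNA2, CKS2 and MAD2L1 in shScr and MAD2L1 in shTFEB cells were past 2-fold under both rescalings. Negative ratios numbered 43 and 42 of 49 by median-of-ratios and 45 and 47 by upper-quartile. An alternative chosen after seeing the data put shScr vehicle in place of the group labelled shTFEB vehicle. Of the 49 genes 3 (CCNA2, MAD2L1 and KIF2C) were then at least 2-fold lower in shTFEB ATRA, against 1172 of all 11052 genes. KIF2C already had a log2 ratio of -0.42 between the group labelled shTFEB vehicle and shScr vehicle.

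No paired analysis was possible because each table holds 1 value per group and no column carries a replicate number; leaving out a replicate was likewise not possible.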
